A study of Mus musculus with 2 samples.

Results

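The Sprouty and Spred genes encode 7 related proteins, Spry1 to Spry4 and Spred1 to Spred3. Their relation to the binding regions of Etv4 and Etv5 was examined by taking every region that lay inside one of the genes or within 50 kb of either end. The rule placed 4 of 13636 Etv4 regions and 3 of 8297 Etv5 regions at these genes. Of the 7 members, 6 lie on assembled chromosomes and could be assessed. Spry3 lies on an unlocalized scaffold of the X chromosome (GL456233.1, 101352 to 106395, minus strand), and neither list holds any region on a scaffold. Its lack of regions is therefore not a measurement.

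The regions come from 2 ChIP-seq libraries of EpRas cells, in which DNA crosslinked to a protein is recovered with an antibody and sequenced. EpRas is a mouse mammary gland epithelial line obtained by transforming EpH4 cells with oncogenic H-Ras. Both libraries were from cells kept in 4% serum and given 1 ng/ml TGF-β3 for 1.5 h, one with a rabbit polyclonal antibody to Etv4 and the other with a mouse monoclonal antibody to Etv5. Untreated cells, EpH4 cells and control libraries were not analysed here, and each antibody had 1 library, so no difference could be set against replicates and no test between antibodies was made. The lists hold positions without read counts, so the depth behind a region is unknown, and the mammary identity of the cells cannot be checked from them.

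Sprouty and Spred proteins are inhibitors of signalling from receptor tyrosine kinases to Ras, Raf and ERK. Several of the genes are induced by the ERK pathway itself, so that the proteins act as negative feedback. Sprouty proteins act at several levels between the receptor and Raf, and bind partners such as the ubiquitin ligase Cbl. Spred proteins bind neurofibromin, the Ras GTPase-activating protein encoded by Nf1, and bring it to the membrane. Etv4 and Etv5 are ETS transcription factors of the PEA3 group, which are themselves activated through Ras and ERK and recognise DNA with a GGAA core.

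The genomic sequence (GRCm38, plus strand) under the regions that the description turns on is given first, so that positions and patterns can be read from it. The first 3 sequences belong to Spred2. One is the start of the Etv5 region upstream of the gene, with CAGGAAGT on the minus strand in capitals at bases 47 to 54. The next is the part of an Etv4 region that precedes the first exon, with its 5 GGAA cores of both strands in capitals. The third is from the first intron, where both lists have a region, with CAGGAAGT at bases 93 to 100 and TGACTCA at bases 150 to 156 in capitals.
Spred2 upstream, chr11:19919847-19920146: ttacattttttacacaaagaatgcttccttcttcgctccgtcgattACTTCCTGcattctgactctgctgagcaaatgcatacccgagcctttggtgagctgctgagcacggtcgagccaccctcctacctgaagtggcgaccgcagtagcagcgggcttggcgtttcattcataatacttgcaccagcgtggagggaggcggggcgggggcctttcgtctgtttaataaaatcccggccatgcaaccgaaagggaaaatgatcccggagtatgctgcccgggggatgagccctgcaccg
Spred2 start, chr11:19924127-19924374: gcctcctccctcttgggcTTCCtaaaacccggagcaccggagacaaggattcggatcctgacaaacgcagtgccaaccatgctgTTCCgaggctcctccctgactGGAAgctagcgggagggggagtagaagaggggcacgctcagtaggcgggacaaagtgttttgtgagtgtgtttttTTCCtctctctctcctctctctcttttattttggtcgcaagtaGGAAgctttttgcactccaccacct
Spred2 intron 1, chr11:19979360-19979659: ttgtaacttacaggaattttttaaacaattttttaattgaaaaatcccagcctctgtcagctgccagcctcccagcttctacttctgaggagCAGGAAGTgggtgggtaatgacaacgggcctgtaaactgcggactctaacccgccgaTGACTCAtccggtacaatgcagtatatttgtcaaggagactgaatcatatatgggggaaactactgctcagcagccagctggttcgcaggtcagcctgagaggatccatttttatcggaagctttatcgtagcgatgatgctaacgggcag

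The fourth sequence is the part common to the pair of overlapping regions nearest to the start of Spred1, which lies far outside the 50 kb and is shown because Spred1 has nothing closer in the Etv4 list. Capitals mark TGTGGTC of the minus strand at bases 161 to 167 and TGAGTCA at bases 173 to 179.
Spred1 distal pair, chr2:116989336-116989607: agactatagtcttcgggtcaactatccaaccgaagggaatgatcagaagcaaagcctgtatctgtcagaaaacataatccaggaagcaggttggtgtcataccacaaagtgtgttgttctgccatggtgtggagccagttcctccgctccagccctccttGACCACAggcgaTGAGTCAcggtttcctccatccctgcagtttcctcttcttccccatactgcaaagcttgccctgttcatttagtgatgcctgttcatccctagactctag

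All 4 Etv4 regions and 2 of the 3 Etv5 regions at the family lay at Spred2. The remaining Etv5 region lay at Spry4, while Spry1, Spry2, Spred1 and Spred3 had no region of either list. Thus 1 of 6 members had an Etv4 region, beside 53.4% of 21938 protein-coding genes treated in the same way. An Etv5 region was found at 2 of 6 members, beside 42.7% of all genes. Neither list had a region at 4 of 6 members, beside 40.4% of all genes. The Etv5 count relative to all genes turned with the distance allowed, since it was 2 of 6 beside 23.0% within 10 kb, 4 of 6 beside 56.3% within 100 kb and 5 of 6 beside 71.3% within 200 kb. The Etv4 count was 1 of 6 beside 33.2% within 10 kb, 3 of 6 beside 65.5% within 100 kb and 5 of 6 beside 77.8% within 200 kb, so that it too was above the share of all genes at the last distance. With 6 genes each gene moves a share by 16.7 percentage points, and these counts are descriptions without a test. Together the intervals searched around the 6 genes covered 0.797 Mb and held 5.02 Etv4 and 3.76 Etv5 regions per Mb. The nuclear genome held 5.00 and 3.04 regions per Mb. The intervals of all protein-coding genes held 9.92 and 5.64 per Mb with each gene counted on its own. Regions and bases in overlapping gene intervals therefore count more than once, and this density is not the same measure as that of the genome.

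**Figure D1:**
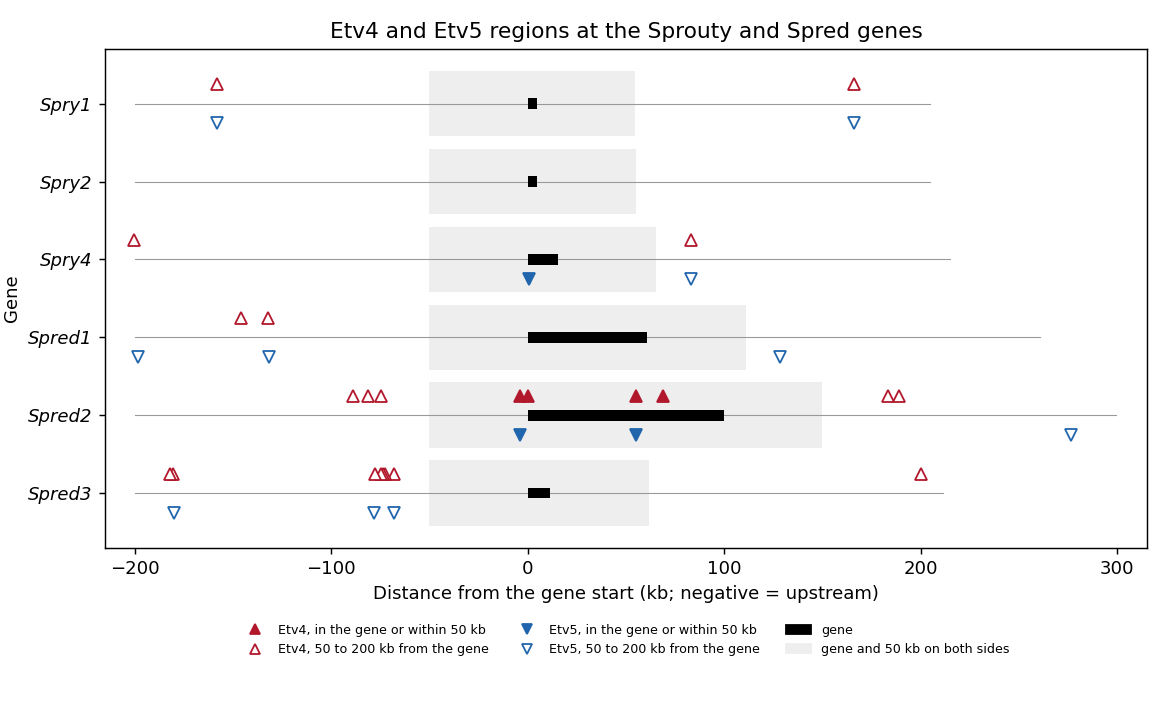
Map of Etv4 (triangles up) and Etv5 (triangles down) regions around the 6 placed genes, by distance of the region midpoint from the gene start in kb, with negative values upstream; filled symbols lie in the gene or within 50 kb (grey), open symbols lie 50 to 200 kb from the gene. Filled symbols occur at Spred2, with 4 Etv4 and 2 Etv5 regions, and at Spry4, with 1 Etv5 region.

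Spred2 is on chromosome 11 (19924375 to 20024026, plus strand) and is the longest of the 6 genes at 99.7 kb, so that its searched interval of 199.7 kb was also the longest. At least 4 Etv4 regions were found at 13.4% of all protein-coding genes and at least 2 Etv5 regions at 19.6%. These shares are over genes of every length and were not matched to the searched interval of Spred2. The 4 Etv4 regions at Spred2 measured 564, 381, 619 and 563 bp. The nearest protein-coding start to each region at Spred2 was that of Spred2 itself. None of the 36-base words of these regions occurs a further time in the assembly, so reads of that length can be placed uniquely there.

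The regions nearest to the Spred2 start differed between the lists. One Etv4 region (19924127 to 19924507) spanned the annotated start, with its midpoint 0.058 kb upstream, and 2.51% of all genes have an Etv4 region closer to their start. No Etv5 region overlapped it. An Etv4 midpoint within 2 kb of an annotated start was found at 17.9% of protein-coding genes, and Spred2 was the 1 member among them. The region had the number 10443 of 13636 in the Etv4 list, at 76.6% of the list. These numbers run from 1 upwards with an unstated criterion, and low numbers belong to long regions in both lists (Spearman's rho of number and length -0.90 for Etv4 and -0.87 for Etv5 across regions, which are not independent).

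The same region had 10 GGAA cores in the 500 bp around its midpoint, where the median of all Etv4 regions is 6. Of these, 5 had A or C before the core and A or G after it, beside a median of 2 in the Etv4 list. The longer ETS patterns CCGGAAGT and CAGGAAGT, the AP-1 patterns TGACTCA and TGAGTCA and the RUNX patterns TGTGGTT and TGTGGTC were absent from this window on both strands. The capitals in the Spred2 start sequence show that the cores are spread over the bases before the first exon and are not gathered at 1 position. The 300 bases of the RefSeq promoter of Spred2 (GRCm38.p6, 250 bases before to 50 after the RefSeq start) held 7 GGAA cores and none of the longer patterns. In their 500 bp, the other Etv4 regions at Spred2 had 5, 7 and 6 GGAA cores.

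Upstream of Spred2, both lists had a region about 4 kb from the start, in intergenic sequence. The Etv4 region (19919999 to 19920562) was 4.10 kb upstream and lay wholly inside the Etv5 region (19919847 to 19920691), which was 4.11 kb upstream, so that all 564 bp were shared. The Etv5 region was the longest of the 7 at 845 bp and had the number 1479 of 8297, at 17.8% of its list. The Etv4 region stood at 58.8% of its own list, with the number 8012. Numbers of the 2 lists are not on a common scale. GC content was 66.1% in the Etv4 region and 63.6% in the Etv5 region. The CAGGAAGT marked in the upstream sequence (19919893 to 19919900, minus strand) is inside the Etv5 region and outside the Etv4 region, 373 bp from the Etv5 midpoint.

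The first intron of Spred2 held 2 Etv4 regions and 1 Etv5 region. The pair at 55.1 kb from the gene start (Etv4, 19979206 to 19979824) and 55.2 kb (Etv5, 19979360 to 19979710) shared all 351 bp of the Etv5 region, and lay 24.9 kb from the nearest annotated start of a Spred2 transcript. It was the one place at the family where an ETS and an AP-1 pattern occurred together. CAGGAAGT (19979452 to 19979459) and TGACTCA (19979509 to 19979515) were both on the plus strand, with the AP-1 pattern 3 bp from the Etv4 midpoint and 23 bp from the Etv5 midpoint. In the numbering, the Etv4 region stood at 52.9% and the Etv5 region at 63.5% of their lists.

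Further into the same intron, at 68.6 kb from the start, an Etv4 region (19992718 to 19993280) had no Etv5 partner. It was 38.4 kb from the nearest annotated Spred2 start and stood at 58.5% of the Etv4 list. Neither an ETS nor an AP-1 pattern was in its 500 bp, but TGTGGTT was found on the minus strand (19992992 to 19992998), 4 bp from the midpoint.

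**Figure D2:**
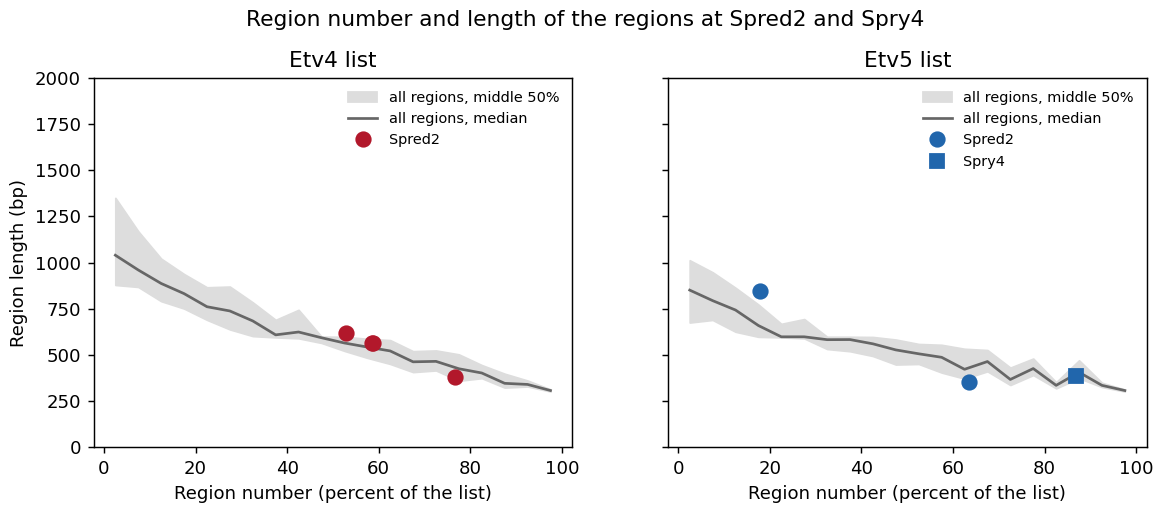
Region length in bp against region number, as a percent of its list, for the regions at Spred2 (circles) and Spry4 (square), with the median (line) and the middle 50% (grey) of all regions in 20 bins of the number. The 4 Etv4 regions at Spred2 lie between 52.9% and 76.6% of the list, 2 of them almost on top of each other, and 1 Etv5 region lies at 17.8%, above the grey band with 845 bp.

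Across both genes with a region, 2 of 4 Etv4 regions overlapped an Etv5 region (50.0%), and 2 of 3 Etv5 regions overlapped an Etv4 region (66.7%). These are the same 2 pairs, both at Spred2. In the complete lists the shares were 37.8% and 63.2%. All 4 Etv4 regions lie at 1 gene, so the regions are not independent and the counts are descriptions. An ETS pattern was in the 500 bp of 1 of 4 Etv4 and 1 of 3 Etv5 regions, which is the same site in the Spred2 intron, beside 10.2% of all Etv4 and 7.95% of all Etv5 regions. An AP-1 pattern was likewise in 1 of 4 and 1 of 3, again 1 shared site, beside 37.4% and 35.8% of the lists. A RUNX pattern was in 1 of 4 Etv4 regions and 0 of 3 Etv5 regions, beside 24.7% and 23.9%. So few regions cannot separate these shares from those of the lists.

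Spry4 had 1 Etv5 region and no Etv4 region within 50 kb. The gene is on chromosome 18 (38586247 to 38601415, minus strand), and the region (38600756 to 38601138, 383 bp) was in its only intron, 277 bp downstream of the annotated start at its nearer edge and 0.468 kb at its midpoint. An Etv5 midpoint within 2 kb of an annotated start was found at 10.6% of protein-coding genes, and 6.02% of genes have an Etv5 region closer to their start than Spry4. The region had the number 7211 of 8297, at 86.9% of the Etv5 list, and a GC content of 67.1%. Its 500 bp held 6 GGAA cores, the median of the Etv5 list, and no ETS, AP-1 or RUNX pattern. The nearest Etv4 region was 83.3 kb downstream of the start (38517717 to 38518544), beyond the end of the gene, and shared 599 bp with an Etv5 region. The starts of Spred2 and Spry4 thus each had a region of 1 list within 2 kb and none of the other. The share of all genes with such a start was not counted. Of the Etv4 regions between 75 and 80% of their list, 20.4% overlapped an Etv5 region. Of the Etv5 regions between 85 and 90% of theirs, 36.4% overlapped an Etv4 region.

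Spry2, a Sprouty gene on chromosome 14 (105891947 to 105896819, minus strand), was the farthest from any region. Its nearest Etv4 midpoint was 232 kb downstream (105664539 to 105665420, number 3063) and did not overlap the Etv5 list. The nearest Etv5 midpoint was 308 kb downstream (105588561 to 105589155, number 5334) and did overlap an Etv4 region. The nearest protein-coding start to both was still that of Spry2. An Etv4 region is closer to the start in 78.4% of all genes, and an Etv5 region in 78.2%.

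Spry1 is on chromosome 3 (37639947 to 37644598, plus strand), and its nearest regions formed a pair 158 kb upstream that the lists share over 954 bp. This pair had low numbers, 94 in the Etv4 list (37481084 to 37482050) and 95 in the Etv5 list (37481090 to 37482043), at 0.689% and 1.14%. It lies in intron 14 of Spata5, and the nearest protein-coding start is that of Nudt6, at 61.4 kb. Of its 36-base words, 68.1% in the Etv4 and 67.7% in the Etv5 region occur more than once in the assembly, so that many reads from it have no unique position. Words of the Etv4 region occur at 11182 other loci, of which the one on chromosome 16 (57391201 to 57391591) shared most, with 87 of 932 words. How many of the reads behind this pair came from such copies was not tested, so the position behind its low numbers and its overlap is uncertain. By eye its central part resembles 28S ribosomal RNA, whose genes are present in many copies, but this was not tested by alignment to a complete ribosomal RNA sequence. Whether the other loci hold such sequence was not tested either. The sequence of the pair is therefore not printed. The second pair, 166 kb downstream of the Spry1 start (37805623 to 37806405 and 37805742 to 37806144), had no such words and the numbers 4424 and 3947.

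Spred1, on chromosome 2 (117121374 to 117182279, plus strand), had its nearest Etv4 region 132 kb upstream (116989088 to 116989607). It shared 272 bp with an Etv5 region (116989336 to 116989661), and these 272 bases are the Spred1 distal pair given above. TGAGTCA (116989508 to 116989514) and TGTGGTC (116989496 to 116989502, minus strand) lay 13 and 1 bp from the midpoint of the Etv5 region, and 164 and 152 bp from that of the Etv4 region. The nearest protein-coding start was that of Tmco5 at 111 kb, not that of Spred1. The nearest Etv5 region was on the other side of the gene, 129 kb downstream of its start (117249764 to 117250124), and lay 0.205 kb from the start of Fam98b.

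Spred3, on chromosome 7 (29158829 to 29170411, minus strand), had its nearest region of both lists about 68 kb upstream. The Etv4 region (29238064 to 29238544, number 7529) and the Etv5 region (29238128 to 29238707, number 2615) shared 417 bp. Both are at the start of another gene, Yif1b, at 0.025 and 0.088 kb from it.

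**Figure D3:**
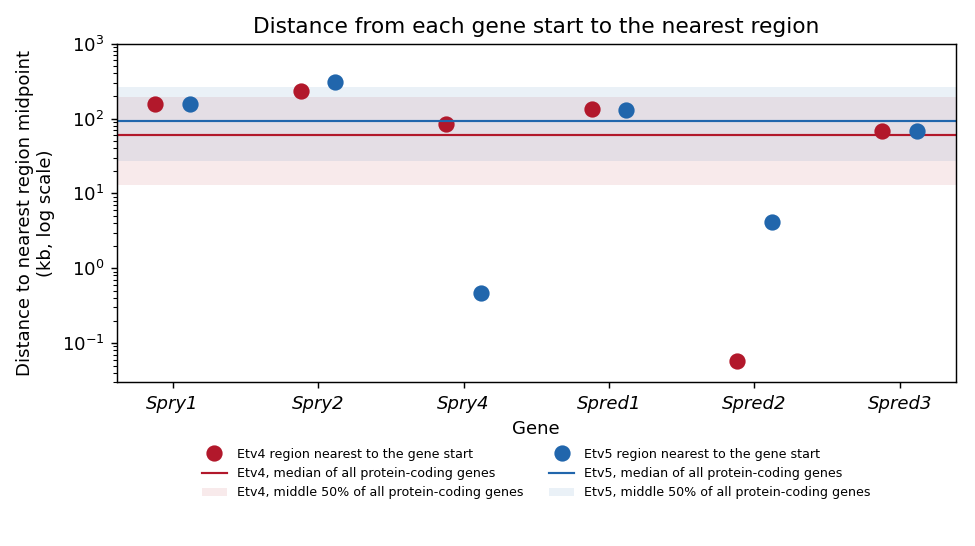
Distance in kb, on a log scale, from the start of each placed gene to the midpoint of the nearest Etv4 (red) and Etv5 (blue) region, with the median (lines) and the middle 50% (shading) over 21938 protein-coding genes. Spred2 has its Etv4 region at 0.058 kb and Spry4 its Etv5 region at 0.468 kb, while Spry1, Spry2, Spred1 and Spred3 lie above the median of each list, apart from the Etv5 distance of Spred3.

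Over the 6 members, the median distance to the nearest midpoint was 108 kb for Etv4 and 98.3 kb for Etv5. All protein-coding genes had medians of 60.3 kb (quartiles 13.1 and 195.2 kb) and 93.8 kb (27.4 and 263.9 kb). For Etv4, 5 of 6 members lay beyond the median of all genes, and for Etv5 3 of 6 did. In order of distance, the Etv4 list ran from Spred2 over Spred3, Spry4, Spred1 and Spry1 to Spry2, and the Etv5 list from Spry4 over Spred2, Spred3, Spred1 and Spry1 to Spry2.

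Promoter sequence was compared through the RefSeq promoters, of which 5 members had an entry (Spry1, Spry2, Spred1, Spred2 and Spred3). These windows are placed on RefSeq starts, which are those used above for Spry1 and Spry2 but lie 67 bp inside the gene for Spred2, 303 bp upstream for Spred1 and 1.76 kb inside the gene for Spred3. The windows of Spred1 and Spred3 therefore do not hold the start used above. None of the 5 held CCGGAAGT or CAGGAAGT, which 7.07% of 32851 promoters hold on either strand. None held TGACTCA or TGAGTCA, found in 5.20% of promoters, or TGTGGTT or TGTGGTC, found in 9.27%. GGAA cores numbered 7 at Spred2, 5 each at Spred1 and Spry2 and 1 each at Spred3 and Spry1. The cores were not counted over all promoters, so these numbers have no background. The absence of these letters from the window says nothing of other sites.

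The other genes of the pathway were counted in the same way from a list of 41 genes. Of these, 35 (85.4%) had an Etv4 region and 30 (73.2%) an Etv5 region inside the gene or within 50 kb, and Mknk1 and Siah2 had neither. Both shares were above those of all protein-coding genes. At the same 50 kb those of the Sprouty and Spred genes were below them, which did not hold for Etv5 within 10, 100 or 200 kb or for Etv4 within 200 kb. The median distance from the start to the nearest midpoint was 13.3 kb for Etv4 and 40.4 kb for Etv5 over the 41 genes. No test was made of these differences.

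Among the receptors and adaptors, which pass the signal from the growth factor to Ras, 12 of 13 had an Etv4 and 12 of 13 an Etv5 region. Fgfr2, a fibroblast growth factor receptor gene, had the most of both lists, with 21 Etv4 and 12 Etv5 regions, but its annotated gene model extends over 2961 kb. Met, the receptor gene of hepatocyte growth factor, had 7 Etv4 regions, and Erbb2, the gene of a receptor of the EGF receptor family, had 5 Etv5 regions. Of the Ras genes, GTPase-activating proteins and kinases, 11 of 12 had an Etv4 and 6 of 12 an Etv5 region, the latter (50.0%) near the 42.7% of all protein-coding genes.

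The other feedback inhibitors form the listed group most like the Sprouty and Spred genes in role, although Socs3 among them acts on cytokine receptors. All 7 had an Etv4 region, with 2 to 9 each, and 6 of 7 had an Etv5 region, Il17rd being the exception. Socs3, an inhibitor of cytokine receptor signalling, had 9 Etv4 and 6 Etv5 regions. Lrig1, which lowers receptors of the EGF receptor family, had 7 Etv4 regions, and Dusp5, a phosphatase of ERK, had 5 Etv5 regions. The median distance from start to nearest midpoint was 1.01 kb for Etv4 and 16.5 kb for Etv5 in this group, beside 108 and 98.3 kb for the Sprouty and Spred genes. The Etv4 median of the group is the distance of Socs3 itself. Of the genes for partners of Sprouty proteins, 5 of 9 had an Etv4 and 6 of 9 an Etv5 region, the former (55.6%) near the 53.4% of all protein-coding genes.

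**Figure D4:**
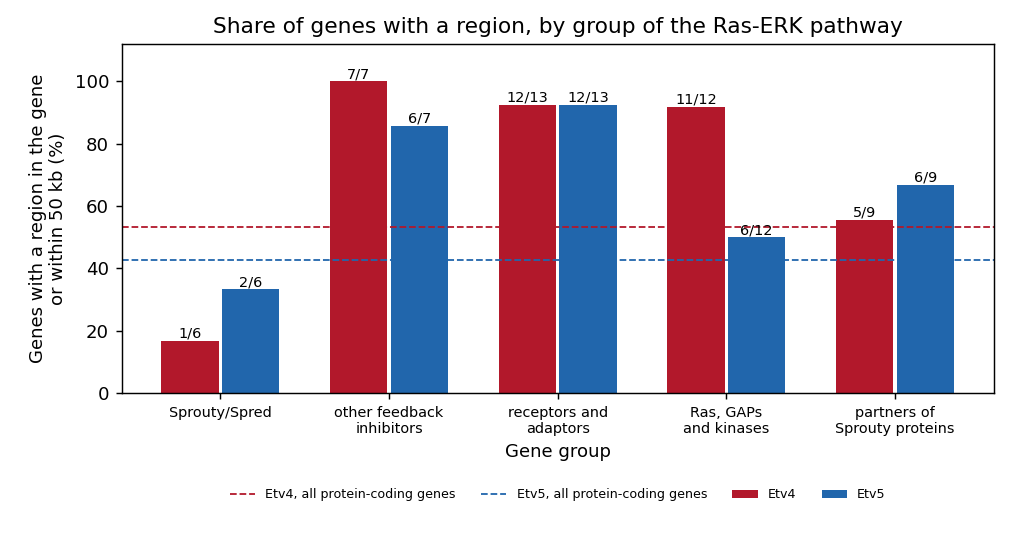
Percent of genes with an Etv4 (red) or Etv5 (blue) region in the gene or within 50 kb, for the Sprouty and Spred genes and 4 groups of other genes of the Ras-ERK pathway, with the number of genes above each bar; dashed lines give the share of all protein-coding genes, 53.4% for Etv4 and 42.7% for Etv5. The bars of the Sprouty and Spred genes, 1 of 6 and 2 of 6, are below the lines at this distance, but for Etv5 the genes are above the share of all genes within 10, 100 or 200 kb, and for Etv4 within 200 kb.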

How the data were processed

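ChIP-seq was performed by the authors on TGF-β3-treated EpRas cells, with 15 cycles of PCR in library preparation. Bowtie and mm10 are named in the submitters' processing notes. Reads were cut to 36 bp, and regions were called per library with the one-sample mode of CisGenome (window of 300 bp, p threshold of 0.1), which uses no control library. The deposited score is 1000 for every region and was not used. Positions are printed counting from 1, and lengths are uncertain by 1 bp.

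Gene models were from GENCODE (release M21, GRCm38), promoters from RefSeq. A region counted for a gene when any base lay in the gene or within 50 kb, and regions overlapped with at least 1 bp in common. Distances run from midpoints to gene starts. The pattern search covered both strands of the 500 bp centred on each midpoint. The members and lists were chosen with earlier results of these data known. Named were all members with their regions, genes that hold such a region or have the nearest protein-coding start, and the 3 pathway genes with most regions of each list, ties included. Il17rd, Mknk1 and Siah2 were named after their values were seen.

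Functions were tested on simulated data. Other distances, overlap rules, patterns, windows, parts of the lists and RefSeq gene models were tried as alternatives. Computations used Python 3.11.15, numpy 2.4.6, pandas 2.3.3, scipy 1.17.1, pysam 0.24.0, samtools 1.23.1 and matplotlib 3.10.9.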

Additional observations from a re-analysis of the deposited data

How the results depend on the processing

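With 1 library per antibody, no result has a replicate check, and without read counts the depth is unknown. No paired analysis was possible because the labels give 1 library per antibody and no result comes from a test. Within 10 kb, with region midpoints, reciprocal overlap of 50%, midpoints within 250 bp, a window of 200 bp or RefSeq gene models, the counts at the Sprouty and Spred genes were the same. When each list was limited to its first 50% in order of region number, 0 Etv4 regions and 1 Etv5 region (the upstream one at Spred2) remained at 0 and 1 genes, with 0 overlapping, 0 within 2 kb of a start and 0 with an ETS or AP-1 pattern, beside 35.7% and 26.0% of all genes. In the longer 50%, 1 Etv4 and 1 Etv5 region remained, 1 gene had an Etv5 region, 0 overlapped, 0 were near a start and 0 Etv5 regions had an ETS or AP-1 pattern, beside 35.7% and 25.4% of all genes. Both parts of the lists left 19 of the 41 pathway genes with an Etv5 region. Within 100 kb there were 15 Etv4 and 7 Etv5 regions at 3 and 4 genes, 5 of each list overlapping, 2 Etv4 regions with an ETS and 5 and 2 with an AP-1 pattern, beside 65.5% and 56.3% of all genes. Within 200 kb, an alternative chosen after seeing the data, there were 23 and 13 regions at 5 and 5 genes, 9 of each list overlapping, 3 Etv4 regions with an ETS and 8 and 5 with an AP-1 pattern, beside 77.8% and 71.3%. Within 50 kb of the gene start alone, 2 Etv4 regions were counted and 1 of each list overlapped, beside 46.2% and 36.1% of all genes. Regions assigned by the nearest protein-coding start numbered 13 for Etv4, at 3 genes, and 5 for Etv5, with 4 of each list overlapping. With a start distance of 5 kb, 2 regions of each list were near a start. The pattern CCGGAAGT alone was in 0 regions of either list, the pattern with A or C before the core and A or G after it was found in all 4 Etv4 regions and all 3 Etv5 regions, and the whole region had the ETS pattern in 2 Etv5 regions. Within 10 kb, 33.2% and 23.0% of all genes had a region, and 18 pathway genes an Etv5 region. Why the counts differed between these settings was not tested. All 4 Etv4 regions lie between 52.9% and 76.6% of their list, so that its first 50% held none of them. In the longer 50%, the nearest Etv4 midpoint to the Spred2 start was at 55.1 kb, and in the first 50% at 81.2 kb. The nearest Etv5 midpoint to the Spry4 start was at 83.3 kb in both. In the longer 50%, the nearest midpoints to the Spred1 start were at 545 kb for Etv4 and 718 kb for Etv5, and in the first 50% the nearest Etv5 midpoint to the Spry2 start was at 1181 kb. For Spred3 the nearest Etv4 midpoint was at 74.4 kb in both. Relative to all genes, the Etv5 count of members was lower at 50 kb and higher within 10, 100 and 200 kb, and the Etv4 count was higher within 200 kb alone among these distances.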

Other observations

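Between 50 and 200 kb from the Sprouty and Spred genes lay 19 Etv4 and 10 Etv5 regions, and 7 of each list overlapped the other. In the complete lists, 37.8% of Etv4 and 63.2% of Etv5 regions overlapped the other list, near the shares here. Spred2 had 3 Etv4 regions upstream without an Etv5 partner, at 88.9, 81.2 and 74.7 kb from its start (chromosome 11, 19835239 to 19835741, 19842924 to 19843466 and 19849417 to 19849881). The nearest protein-coding start to each was that of Spred2. All 3 held TGAGTCA, the first at 2 positions and the others at 1, and none held an ETS pattern. Over all Etv4 regions, 37.4% had an AP-1 pattern and 10.2% an ETS pattern in the 500 bp. The 3 upstream regions stood at 58.6, 43.2 and 65.1% of the Etv4 list.

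Downstream of Spred2, 1 Etv4 region (20112896 to 20113445) lay 0.257 kb from the start of Actr2, which encodes a subunit of the Arp2/3 complex, and held CCGGAAGT. The Etv5 region farthest downstream (20200757 to 20201275) lay 0.416 kb from the start of Rab1a.

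The stretch upstream of Spred3 held more of these regions than either side of any other member, with 7 Etv4 and 3 Etv5 regions between 67.9 and 181.9 kb from its start, in or near Yif1b, 2200002D01Rik and Sipa1l3. The longest, an Etv4 region of 1865 bp (chromosome 7, 29247065 to 29248929), lay 0.469 kb from the start of 2200002D01Rik and shared 593 bp with an Etv5 region, with TGACTCA in the shared part. None of these regions had the start of Spred3 as the nearest protein-coding start.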
